A study of Bos taurus with 27 samples.

Results

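The carbonic anhydrases described here are the 10 genes *CA1*, *CA2*, *CA3*, *CA4*, *CA5B*, *CA6*, *CA8*, *CA9*, *CA12* and *CA13*, taken as every non-control probe whose gene name in the array files equals one of these symbols. Each gene had 1 probe, so the family made up 10 of the 14952 gene names and 10 of the 15008 probes of the array. RNA came from the rumen epithelium (RE) of 9 castrated Japanese Black cattle with a rumen fistula, fattened on a high-concentrate diet of concentrate feed and rice straw. A biopsy of the ventral sac was taken from each animal at the early (14 months), middle (21 months) and late (29 months) stage, and each of the 27 RNA samples was hybridized to a one-color bovine array. All 3 stages carried the same fistula and kinds of feed, and no unfattened group was analysed here. The ration was not constant. By the paper's methods the forage share was higher at the early stage than later, and the crude protein of the concentrate fell from stage to stage. Ration, age, time on the diet and stage cannot be told apart. The change from early to middle is called the first period, that from middle to late the second period, and that from early to late the total period.

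Carbonic anhydrases are zinc enzymes that interconvert carbon dioxide and water with bicarbonate and a proton. In the RE they are known for supplying bicarbonate and protons to the exchangers through which volatile fatty acids, sodium and chloride are absorbed. The members differ in where they work: CA1, CA2, CA3 and CA13 in the cytosol, CA5B in mitochondria, CA4, CA9 and CA12 at the cell surface, and CA6 as a secreted enzyme of saliva, while CA8 has lost the catalytic activity.

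Levels are log2 of the processed signal (background-subtracted spot brightness) minus the median of the array, so 0 is the typical probe of that array, and levels of different probes cannot be ranked. A probe counted as well above background where the scanner software had marked it so. Fold changes come from limma with an effect for each animal, and *P* values are adjusted over 15008 probes. The middle-stage arrays were dimmer, with a median processed signal of 8.22 to 28.7 against 35.2 to 48.7 at the early and 32.2 to 47.0 at the late stage, and 48.5 to 71.5% of probes well above background against 68.8 to 78.1% and 68.4 to 73.7%. The part of this in the results below was not tested. Of 15 stratified epithelium markers, 14 were well above background on all 9 early-stage arrays and *KRT4* on none.

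The probes of *CA12*, *CA9*, *CA13* and *CA5B* are shown because these 4 members were called in both periods. Each is 60 bases long, and capitals mark the longest stretch shared with the probe of any other member.
CA12: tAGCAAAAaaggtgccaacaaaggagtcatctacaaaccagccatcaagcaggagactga
CA9: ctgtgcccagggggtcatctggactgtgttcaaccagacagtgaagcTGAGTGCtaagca
CA13: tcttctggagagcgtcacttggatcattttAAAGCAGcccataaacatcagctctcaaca
CA5B: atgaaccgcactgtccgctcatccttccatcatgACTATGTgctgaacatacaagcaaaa
The capitals span 7 bases in each of them, and the longest stretch shared by any pair of the 10 probes was 8 bases, between *CA2* and *CA8*. Each of the 4 sequences has at least 1 reading frame with no stop codon. By the UMD 3.1 coordinates in the array files, the *CA12* probe lies on the plus strand at chr10:46768476-46768535, the *CA9* probe on the plus strand at chr8:60265111-60265170, the *CA13* probe on the minus strand at chr14:79709126-79709185 and the *CA5B* probe on the minus strand at chrX:135024609-135024668. The *CA8* probe spans 8449 bases of the genome (chr14:27656156-27664604), so its 60 bases are not contiguous there. *CA2*, *CA3*, *CA1* and *CA13* lie in this order within 336.7 kb of chromosome 14, and *CA2* (chr14:79372519-79372578) and *CA3* (chr14:79406501-79406560) are neighbors. *CA1* was probed at chr14:79530773-79530832, *CA4* at chr19:13109693-13109752 and *CA6* at chr16:45289165-45289226.

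All 9 early-stage arrays measured 7 of the 10 probes well above background, a number that was 3 at the middle stage (*CA1*, *CA4* and *CA12*) and 8 at the late stage. *CA3* was well above background on 6, 7 and 7 arrays of the early, middle and late stages, *CA6* on 7, 2 and 9 and *CA8* on 6, 0 and 5. *CA2*, *CA5B*, *CA9* and *CA13* were measured on every early and late array but on 6, 8, 3 and 7 of the middle-stage arrays. No probe of the family was saturated or marked as an outlier spot on any array.

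In the first period, 5 of the 10 members changed significantly. *CA12*, *CA9*, *CA13* and *CA5B* were lower at the middle stage and *CA3* was higher. Over the whole array 66.5% of probes were called, 45.3% as higher and 21.2% as lower. The family's share called was below the background in total (5 of 10), with 1 of 10 higher and 4 of 10 lower, and its median log2 fold change was −0.15 against 0.33 over all probes. In the second period 7 of 10 were called, against a background of 71.5%. Here 5 were higher (*CA12*, *CA9*, *CA13*, *CA5B* and *CA8*; background 26.7%) and 2 lower (*CA2* and *CA4*; background 44.8%), with a median log2 fold change of 0.50 against −0.28 over all probes. In the total period 1 was called, *CA3*, which was higher, against a background of 20.0%, of which 11.0% were higher and 9.01% lower. The median log2 fold change was then 0.04 for the members and 0.03 for all probes. These array-wide values depended on dim probes. Without the dim ones 10165 probes were left, among them 8 of the members. The median log2 fold change of these 10165 was 0.01 in the first period and 0.13 in the second. In the second period it thus had the same sign as the members' 0.50. Of the 10165, 3195 were called higher and 3168 lower in the first period, and 3983 and 2900 in the second. Of the 8 members 0 were called higher and 4 lower, then 4 higher and 2 lower. The first and second periods share the middle-stage arrays, so opposite directions in them are not independent. The shares over all 15008 probes are the background of every list count below.

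**Figure D1:**
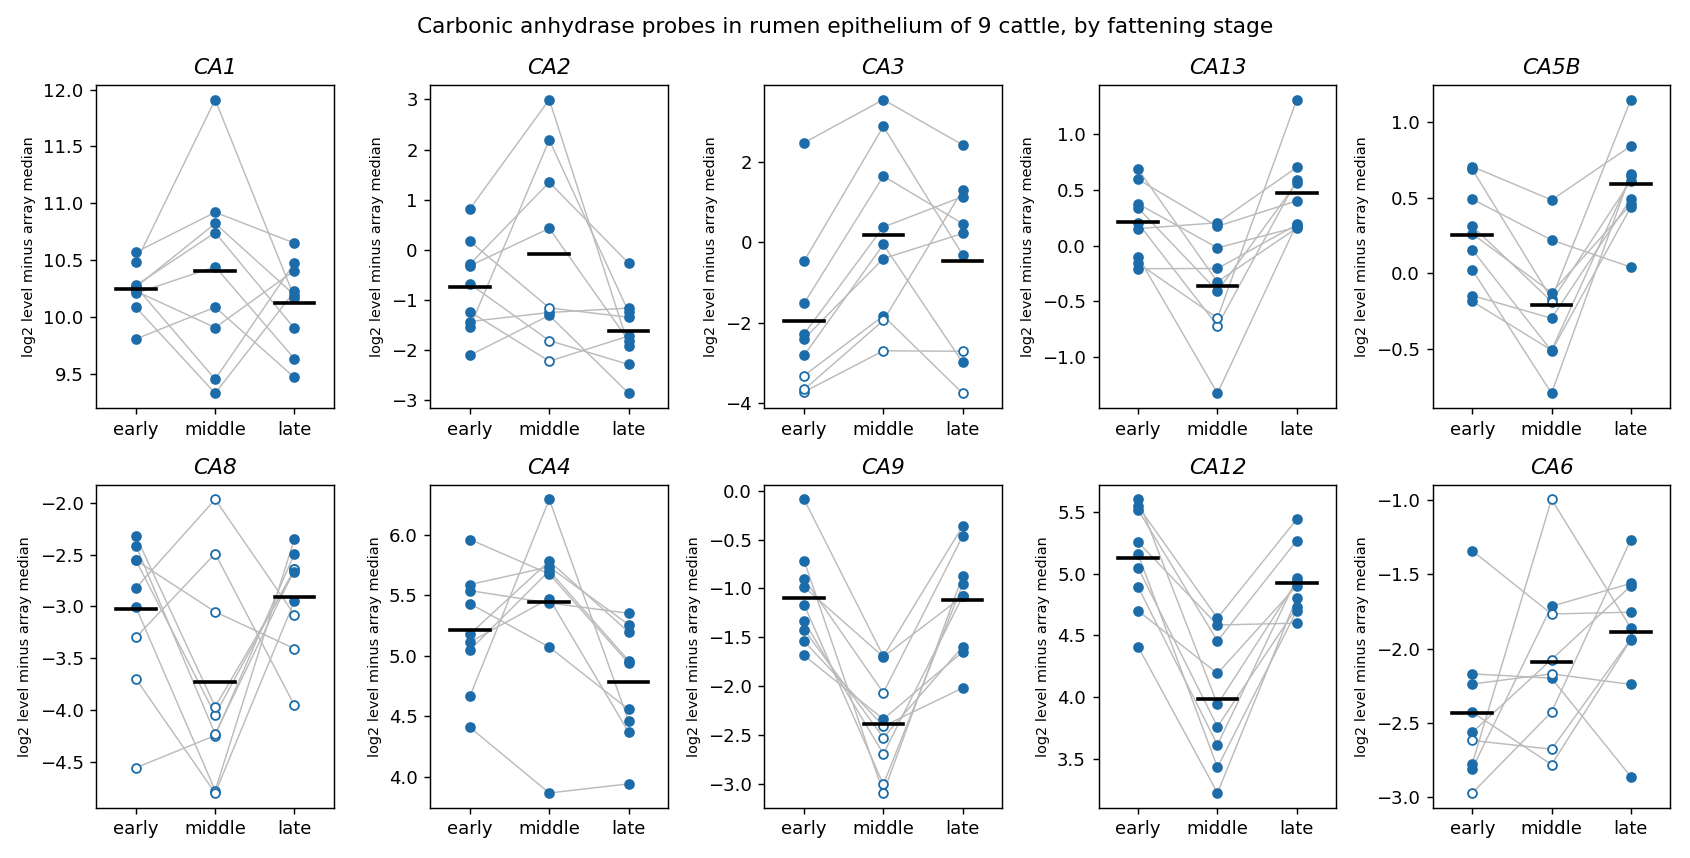
Log2 level minus the array median (vertical axis) of the 10 probes at the early, middle and late stages (horizontal axis). Points are single animals, filled where the probe was well above background and open where it was not, grey lines join the 3 biopsies of 1 animal and black bars are stage means over 9 cattle. *CA12* and *CA9* dip at the middle stage in every animal, while *CA1* shows no common direction.

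Among the cell-surface members, *CA12*, a transmembrane enzyme with its active site outside the cell, was well above background on all 27 arrays. Its log2 level ran from 4.41 to 5.60 (median 5.15) at the early stage, from 3.22 to 4.64 (median 3.94) at the middle stage and from 4.60 to 5.44 (median 4.90) at the late stage. The middle stage was the low one, although its highest animals reached into the range of the other stages. All 9 cattle were lower at the middle than at the early stage, with differences of −1.72 to −0.51, and all 9 were higher again at the late stage, by 0.015 to 1.58. The log2 fold change was −1.14 ± 0.14 (SE, n = 9) in the first period (adjusted *P* = 3.08e-06, limma) and 0.94 ± 0.14 in the second (adjusted *P* = 1.24e-05, limma), or −1.47 and 1.22 relative to the median of all probes. Among the 6797 probes that, like *CA12*, every array measured, the median was 0.08 in the first period and 0.09 in the second. In the second period it thus had the other sign than the median of all probes. Late and early stages did not differ significantly (−0.20, 95% interval −0.50 to 0.10, adjusted *P* = 0.372, limma).

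*CA9*, the tumor-associated surface enzyme known as a hypoxia-inducible gene, followed the same course. Its log2 level was −1.69 to −0.09 (median −1.17) at the early stage, −3.09 to −1.69 (median −2.41) at the middle stage and −2.02 to −0.36 (median −1.08) at the late stage. Early and middle values did not overlap, the lowest early animal being just above the highest middle one, whereas middle and late values did. The fold change was −1.30 ± 0.17 in the first period (adjusted *P* = 6.08e-06, limma; lower in 9 of 9 cattle) and 1.27 ± 0.17 in the second (adjusted *P* = 3.85e-06, limma; higher in 9 of 9), and the late stage was level with the early one (−0.03, 95% interval −0.39 to 0.34, adjusted *P* = 0.947, limma). The probe was dim, with a median processed signal of 17.4, 3.30 and 17.2 at the 3 stages, and only 3 middle-stage arrays measured it. With normexp background correction, which raises dim spots by an offset of 50, the fold changes were −0.04 (adjusted *P* = 0.452, limma) and −0.01 (adjusted *P* = 0.87, limma).

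*CA4*, which is held at the cell surface by a lipid anchor and is known from capillary endothelium, was well above background on all 27 arrays. Its log2 level was 4.41 to 5.96 (median 5.18), 3.87 to 6.29 (median 5.68) and 3.94 to 5.35 (median 4.94) at the early, middle and late stages. The 3 stages overlapped widely, and the lowest middle-stage value, in animal 1, lay well below the next at 5.07. In the second period *CA4* declined in 8 of 9 cattle, with a log2 fold change of −0.67 ± 0.18 (adjusted *P* = 0.00273, limma), or −0.39 relative to the median of all probes. Among the 6797 probes that, like *CA4*, every array measured, the median had the other sign (0.09). The first period gave 0.23 ± 0.18 (adjusted *P* = 0.258, limma) and the total period −0.43 ± 0.18 (adjusted *P* = 0.099, limma; lower in 8 of 9). The total period crossed the threshold under other scalings (−0.55, adjusted *P* = 0.0266, with the 75th percentile and −0.59, adjusted *P* = 0.0153, with quantile normalization, limma), and the second-period value turned to 0.25 with normexp. Of 9 endothelium markers, 5 were higher and 1 lower in the first period, against array-wide shares of 45.3% and 21.2%. In the second period 0 were higher and 5 lower, against 26.7% and 44.8%. Their summed level was 40.0 to 76.1, 52.9 to 108.1 and 52.9 to 81.8 times the array median at the 3 stages, and *CDH5* was well above background on no array. Their part in the *CA4* values was not tested, and in bulk tissue fewer cells of a type and less RNA per cell cannot be told apart.

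The cytosolic *CA13* and the mitochondrial *CA5B*, which is known for supplying bicarbonate to carboxylation reactions, changed in the same directions as *CA12* and *CA9* with smaller fold changes. *CA13* had log2 levels of −0.21 to 0.68 (median 0.20), −1.32 to 0.20 (median −0.32) and 0.16 to 1.31 (median 0.40) at the early, middle and late stages. Late-stage values overlapped the middle-stage ones only at the edge, while early and middle values overlapped more widely. *CA13* was lower at the middle stage in 7 of 9 cattle (−0.57 ± 0.18, adjusted *P* = 0.00978, limma; −0.15, adjusted *P* = 0.0744, with normexp) and higher at the late stage in 9 of 9 (0.84 ± 0.18, adjusted *P* = 0.000431, limma). *CA5B* ran from −0.19 to 0.71 (median 0.26), from −0.79 to 0.48 (median −0.19) and from 0.04 to 1.15 (median 0.61). Its stages overlapped, but within animals it was lower at the middle stage in 9 of 9 (−0.47 ± 0.14, adjusted *P* = 0.00625, limma) and higher at the late stage in 8 of 9 (0.80 ± 0.14, adjusted *P* = 4.55e-05, limma). Relative to the median of all probes these changes were −0.90 and 1.11 for *CA13* and −0.79 and 1.08 for *CA5B*. Without dim probes, a set that holds both members, the median of the array was 0.01 and 0.13. With normexp the second-period rises were 0.25 for *CA13* and 0.35 for *CA5B*, and the first-period fall of *CA5B* was −0.17, all 3 still called. Over the total period neither was called (0.27, 95% interval −0.11 to 0.65, adjusted *P* = 0.339 for *CA13* and 0.34, 95% interval 0.05 to 0.63, adjusted *P* = 0.0942 for *CA5B*, limma).

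*CA3*, a cytosolic enzyme of low activity known from skeletal muscle and fat cells, was the member with the widest spread between animals. Its log2 level was −3.72 to 2.47 (median −2.40) at the early, −2.70 to 3.54 (median −0.06) at the middle and −3.75 to 2.42 (median 0.22) at the late stage. Animal 6 was the highest at each stage, and the groups overlapped across most of their range. Within animals *CA3* was higher at the middle stage in 9 of 9, by 1.02 to 3.35, and the fold change was 2.13 ± 0.51 (adjusted *P* = 0.00131, limma). With normexp it was 0.64 (adjusted *P* = 0.00926, limma). The second period gave −0.64 ± 0.51 (adjusted *P* = 0.268, limma), with single animals from −3.19 to 3.24. That value ran from −1.12 without animal 9, where it was called (adjusted *P* = 0.0261, limma), to −0.32 without animal 5, and was −1.28 without animals 8 and 9 (adjusted *P* = 0.0235, limma). The late stage was above the early one in 6 of 9 cattle (1.50 ± 0.51, adjusted *P* = 0.0452, limma), a call that was lost in 15 of 20 alternatives, where the value ran from 0.40 to 2.26 and stayed above 0, and that was lost when animal 2, 4, 7, 8 or 9 was left out. The animals not well above background at the early stage were 3, 8 and 9, and animals 8 and 9 were not at the middle stage either. *CA3* is shared with muscle and fat, so the markers of both are given here. Array-wide, 45.3 and 21.2% of probes were called higher and lower in the first period, 26.7 and 44.8% in the second and 11.0 and 9.01% in the total period. Of 11 skeletal muscle markers 7 were called higher in the first period, none of them at full detection in both stages, and *MYH1*, *MYH2*, *MYH7* and *TNNT3* were well above background on no array. The 1 lower call was *ACTA1*, skeletal muscle actin (−0.92, adjusted *P* = 0.000184, limma), which was measured on all but 1 of the arrays of these stages. In the second period 2 markers were higher and 8 lower, and in the total period 2 were higher, among them *MYLPF*, a myosin light chain (0.96, adjusted *P* = 0.000127, limma), and 1 was lower, again *ACTA1* (−2.42, adjusted *P* = 1.16e-08, limma). Their summed level was 5.91 to 11.0 at the early, 6.45 to 11.7 at the middle and 9.68 to 14.4 times the array median at the late stage. Of 8 adipocyte markers 6 were called higher and 1 lower in the first period. The lower one, *CIDEA*, a lipid droplet protein, had the largest change of the list (−2.58, adjusted *P* = 1.26e-07, limma; well above background on 9 early and 8 middle arrays). Of the 6 higher ones 4 (*ADIPOQ*, *PLIN1*, *LEP* and *CIDEC*) were well above background on no array of either stage, and the other two were *PPARG* and *FABP4*, a fatty acid carrier also made by other cells (1.00, adjusted *P* = 0.0365, limma). In the second period 2 adipocyte markers were higher and 5 lower, and in the total period 1 was higher and 0 lower. The higher one in the total period was *FABP4* (1.97, adjusted *P* = 0.00193, limma), well above background on all 9 arrays of both stages. The adipocyte sum was 218.1 to 787.7 at the early, 316.4 to 889.9 at the middle and 542.8 to 1112 at the late stage. *ADIPOQ*, *PLIN1* and *LEP*, which define fat cells, were well above background on no array. The part of these markers in the *CA3* values was not tested.

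*CA2*, the high-activity cytosolic enzyme, and *CA1*, its abundant relative of red blood cells and gut epithelium, gave no called change in the first period. *CA2* had log2 levels of −2.10 to 0.82 (median −0.68), −2.22 to 3.00 (median −1.16) and −2.86 to −0.26 (median −1.72) at the early, middle and late stages. The middle stage was split, with animals 2, 5, 6 and 7 at 1.35, 0.43, 3.00 and 2.19 and the other 5 between −2.22 and −1.16, of which animals 4, 8 and 9 were not well above background. The second-period change was −1.53 ± 0.47 (adjusted *P* = 0.00667, limma; lower in 7 of 9), after 0.65 ± 0.47 in the first (adjusted *P* = 0.23, limma). With the slide as a random block the second-period value was −1.21 (adjusted *P* = 0.208, limma). *CA1* was well above background on all 27 arrays, with a processed signal of 7890 to 96180, and its log2 level ran from 9.81 to 10.6 (median 10.3), from 9.33 to 11.9 (median 10.4) and from 9.47 to 10.7 (median 10.2). None of its changes was called: 0.16 (95% interval −0.30 to 0.62, adjusted *P* = 0.53), −0.28 (−0.73 to 0.18, adjusted *P* = 0.262) and −0.12 (−0.58 to 0.34, adjusted *P* = 0.774, limma) in the first, second and total periods. The spread between animals was wider at the middle stage (SD 0.81, n = 9) than at the early (SD 0.22) and late (SD 0.39) stages. Without animals 8 and 9, whose middle-stage arrays shared a slide and scan day of their own (left out after the data were seen), the second-period fall of *CA1* passed the threshold (−0.63, adjusted *P* = 0.00857, limma), and with normexp its direction turned in each period.

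Red blood cell markers are given beside *CA1* and *CA2* because red cells carry both enzymes. Array-wide shares were 45.3% higher and 21.2% lower in the first period and 26.7% and 44.8% in the second. Of 10 markers, 7 were higher and 0 lower in the first period and 0 higher and 6 lower in the second (2 and 1, then 1 and 2, with quantile normalization), with *HBA*, an alpha globin, at 1.22 ± 0.14 (adjusted *P* = 7.58e-07, limma) and −1.14 ± 0.14 (adjusted *P* = 7.56e-07, limma). Of these calls, 2 of the 7 and 1 of the 6 were well above background throughout both stages. *HBB*, another globin, was well above background on 1, 0 and 1 arrays of the 3 stages. It was called in neither period (0.67, adjusted *P* = 0.119, and −0.39, adjusted *P* = 0.348, limma). The summed level of the 10 markers was 39.6 to 68.9, 104.7 to 197.6 and 45.8 to 91.3 times the array median, so the middle stage did not overlap the others. *HBG*, *EPB42* and *HEMGN* were well above background on no array. Their part in the *CA1* and *CA2* values was not tested.

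*CA6*, the salivary enzyme, and *CA8*, the inactive relative, were near background. *CA6* ran from −2.97 to −1.34 (median −2.56), from −2.78 to −0.99 (median −2.17) and from −2.86 to −1.26 (median −1.86), and no period was called (0.35, 0.20 and 0.55, adjusted *P* = 0.194, 0.445 and 0.106, limma). With normexp it was called higher in the first period (0.22, adjusted *P* = 0.0103, limma) and lower in the second (−0.16, adjusted *P* = 0.0412, limma). With quantile normalization it was called higher in the second (0.83, adjusted *P* = 0.025, limma). *CA8* ran from −4.56 to −2.32 (median −2.82) at the early and from −3.96 to −2.35 (median −2.67) at the late stage, and the total period gave 0.12 (adjusted *P* = 0.876, limma). It was well above background on no middle-stage array, so its called second-period rise (adjusted *P* = 0.0468, limma) has no fold that can be given.

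**Figure D2:**
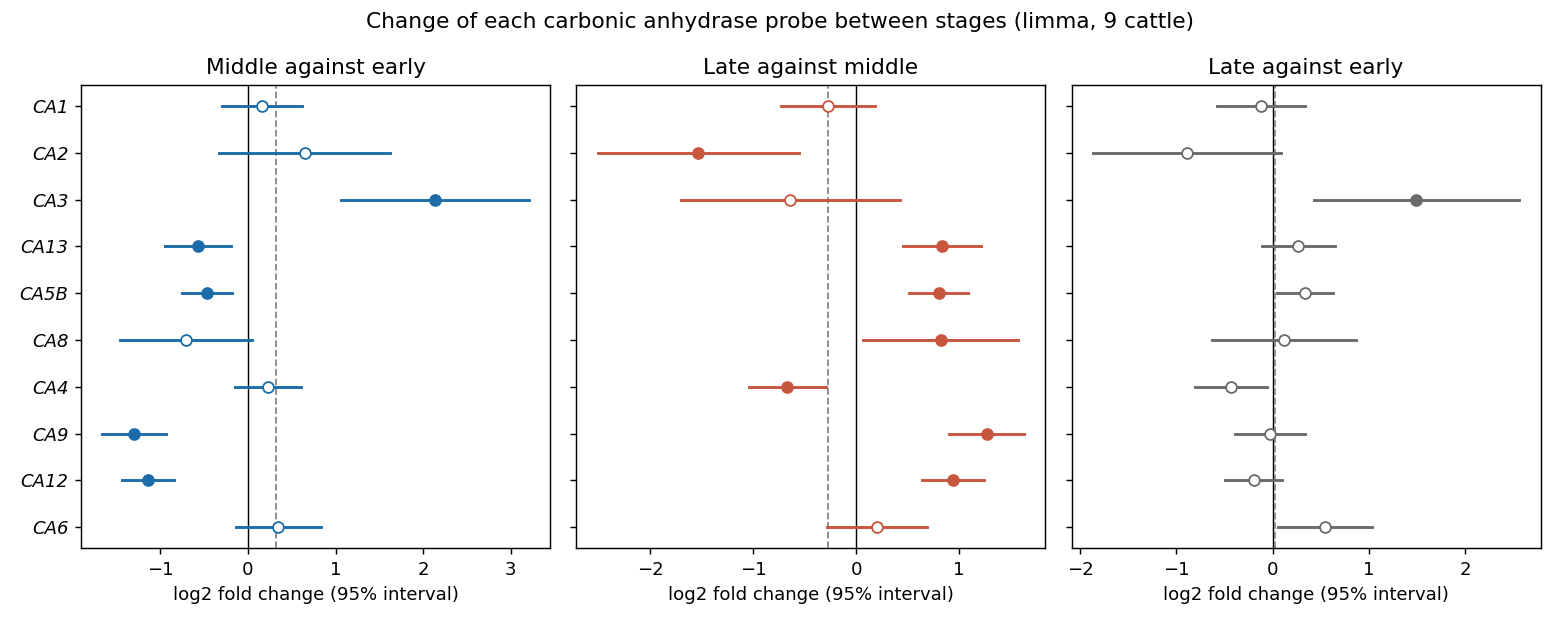
Log2 fold change (horizontal axis) with its 95% interval for the 10 probes (rows) in the first, second and total periods (panels). Filled points were called at an adjusted *P* below 0.05, and the dashed line is the median of all probes (0.33, −0.28 and 0.03). *CA9* and *CA12* lie at −1.30 and −1.14 in the first panel and at 1.27 and 0.94 in the second, and near 0 in the third.

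The stages lay largely on separate slides. Slide 2 alone held both early and middle arrays (1 and 7), and slides 1 and 2, with 9 early and 7 middle arrays, were scanned on the same day. Within that scan day, a set chosen after the data were seen, *CA12* (−1.30, adjusted *P* = 0.000404), *CA9* (−1.34, adjusted *P* = 0.00171), *CA13* (−0.53, adjusted *P* = 0.0321) and *CA5B* (−0.47, adjusted *P* = 0.019, limma) were again called lower. With slide as a fixed effect beside stage and animal, 0 of 10 members were called by limma in the first period and 1 had an unadjusted *P* below 0.05. Over the whole array this fit called 1255 of 15008 probes, against 9984 without slide, and the median SE rose from 0.188 to 0.670. *CA12* was then −1.37 ± 0.48 (adjusted *P* = 0.0852), *CA9* −1.46 ± 0.73 (adjusted *P* = 0.225), *CA5B* −0.67 ± 0.59 (adjusted *P* = 0.518), *CA13* 0.05 ± 0.60 (adjusted *P* = 0.972) and *CA3* 3.01 ± 1.63 (adjusted *P* = 0.262, limma). Sizes were thus similar for *CA12* and *CA9* and near 0 for *CA13*, with larger errors. Within slide 2, on its single early array, *CA12* gave −0.83, *CA9* −1.52, *CA5B* −0.54, *CA13* −0.11 and *CA3* 4.54. These are given as values, since only 7 of 15008 probes were called there and the early array came from another animal than the 7 middle ones. With the slide as a random block *CA12* (−1.01, adjusted *P* = 0.000834), *CA9* (−1.24, adjusted *P* = 0.00166) and *CA3* (2.40, adjusted *P* = 0.0144, limma) were called in the first period, and *CA5B* and *CA13* were not (adjusted *P* = 0.0834 and 0.177, limma), when 6830 probes were called in all. In the second period no slide or scan day held both stages, so slide and stage cannot be told apart. With the error widened by a random slide effect, *CA12*, *CA9*, *CA13*, *CA5B* and *CA4* were still called there, beside 7508 of all probes.

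**Figure D3:**
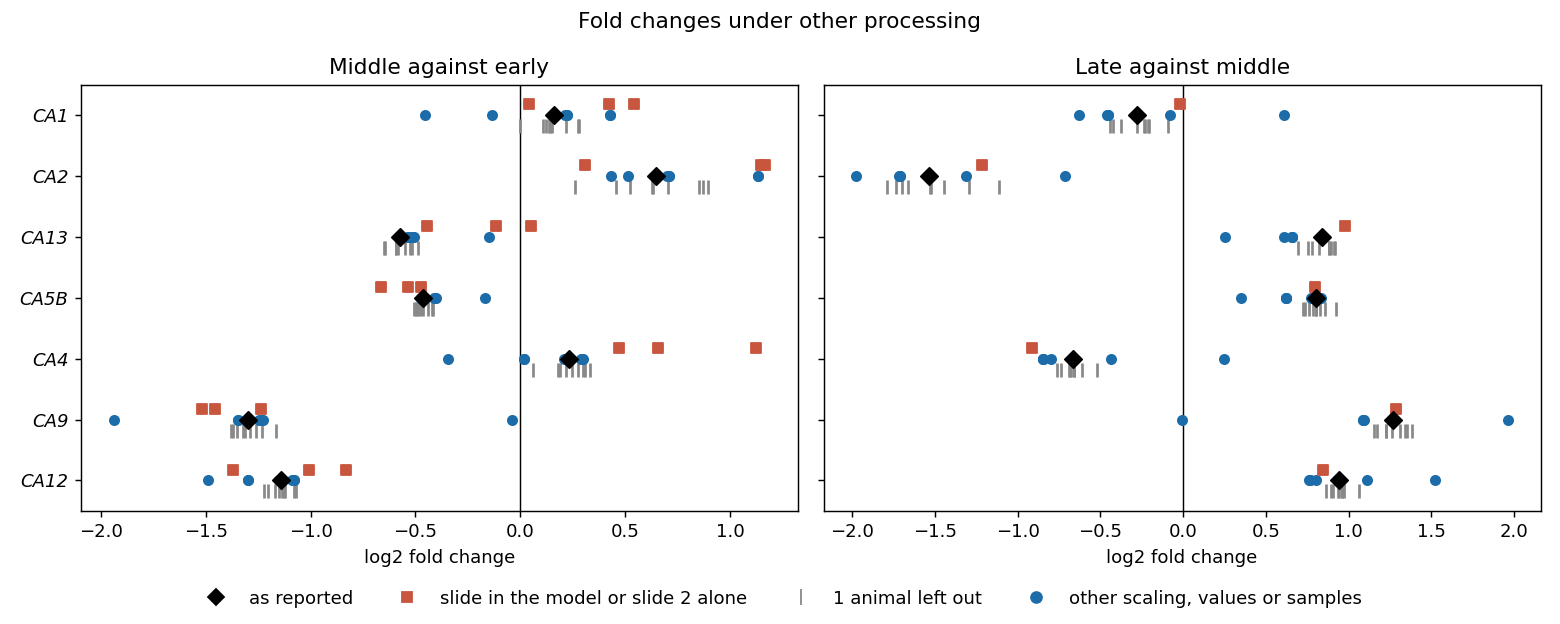
Log2 fold change (horizontal axis) of 7 members (rows) in the first and second periods under each alternative. Diamonds are the reported values, squares have the slide in the model or use slide 2 alone, ticks leave out 1 animal and circles are the other alternatives. *CA12* stays between −1.49 and −0.83 in the first period and between 0.76 and 1.52 in the second, whereas *CA9* comes close to 0 with normexp in both.

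The genes whose level ran most like that of a member over the 27 arrays are named for the 3 members well above background on all of them, as a description among 6763 such probes. For *CA12* they were *SELENBP1* (r = 0.904), *ACSF2* (r = 0.897) and *LIAS* (r = 0.893). For *CA4* they were *RAMP1* (r = 0.763), *MMRN2* (r = 0.760) and *RGS5* (r = 0.755), and for *CA1* *ETAA1* (r = 0.769), *VPREB3* (r = 0.745) and *SUGT1* (r = 0.734). These arrays share animals, slides and stages. Between the 3 members r was −0.354 for *CA1* and *CA4*, −0.149 for *CA1* and *CA12* and −0.335 for *CA4* and *CA12*. On deviations from the stage means these were −0.526, −0.010 and −0.172.

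Transport partners of the enzymes were described from lists. Over all probes, 45.3% were called higher and 21.2% lower in the first period, 26.7% and 44.8% in the second and 11.0% and 9.01% in the total period. Of 12 bicarbonate transporters on the array, 6 were higher and 3 lower in the first period, but none of the 6 was well above background throughout both stages, and with quantile normalization 0 were higher and 3 lower. *SLC26A3*, a chloride-bicarbonate exchanger of the apical gut membrane, fell by 2.74 ± 0.41 on the log2 scale in the first period (adjusted *P* = 1.95e-05, limma) and rose by 3.61 ± 0.41 in the second (adjusted *P* = 4.6e-07, limma). In the second period 4 transporters were higher and 6 lower (4 and 1 with quantile normalization), with 3 of the 4 and 0 of the 6 well above background throughout both stages, and in the total period *SLC4A9*, of the anion exchanger family, was higher (0.65 ± 0.16, adjusted *P* = 0.00634, limma) and 1 was lower. Among 7 sodium-proton exchangers, 4 were higher and 1 lower in the first period and 2 higher and 4 lower in the second, when *SLC9A9* rose by 0.47 (adjusted *P* = 0.0067, limma). *SLC9A3*, the apical exchanger of absorptive epithelia, was higher over the total period (0.79 ± 0.26, adjusted *P* = 0.0396, limma), and 1 other was lower. Of 5 genes of monocarboxylate transport, 2 were higher and 2 lower in the first period, 1 higher and 2 lower in the second and 0 higher and 2 lower in the total period. *BSG*, the chaperone that brings these transporters to the membrane, went from −1.17 ± 0.18 (adjusted *P* = 2.86e-05, limma) in the first period to 1.26 ± 0.18 (adjusted *P* = 7.7e-06, limma) in the second, and *SLC16A8*, a lactate transporter known from the retina, from 1.71 ± 0.17 (adjusted *P* = 3.09e-07, limma) to −3.23 ± 0.17 (adjusted *P* = 4.07e-11, limma).

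*CA9* and *CA12* are both known as hypoxia-inducible, so the other genes of that response were counted. Of 23 on the array, 4 were higher and 12 lower in the first period (median log2 fold change −0.36), 14 higher and 2 lower in the second (0.76; 14 and 5 with the 75th percentile) and 6 higher and 0 lower in the total period (0.21). The other 7, 7 and 17 of the 23 were not called, so the shares called in both directions together were near the array-wide 66.5, 71.5 and 20.0%. By direction, the background depended on dim probes. All 23 genes were well above background on all 9 early arrays and so belong to the 10165 probes left without the dim ones. Of those probes 3195 were higher and 3168 lower in the first period, and 3983 and 2900 in the second. Array-wide shares were 45.3% higher and 21.2% lower in the first period and 26.7% and 44.8% in the second. In the total period they were 11.0% and 9.01%. *PGK1*, an enzyme of glycolysis, fell by 2.29 ± 0.26 (adjusted *P* = 1.17e-06, limma) and rose by 2.37 ± 0.26 (adjusted *P* = 3.19e-07, limma). *PFKFB3*, a regulator of glycolysis, rose in the first period (0.70 ± 0.21, adjusted *P* = 0.00761, limma), *P4HA2*, a collagen prolyl hydroxylase, fell in the second (−0.67 ± 0.15, adjusted *P* = 0.000425, limma), and *EGLN1*, the oxygen sensor that marks hypoxia-inducible factor for decay, led the total period (0.68 ± 0.15, adjusted *P* = 0.0029, limma). The lower calls outnumbered the higher ones in the first period under each scaling tried (5 and 12 with the 75th percentile, 2 and 11 with quantile normalization). With a fixed slide effect 0 of the 23 were called by limma, where the whole array gave 1255 of 15008, and a random slide effect left 1 higher and 8 lower.

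**Figure D4:**
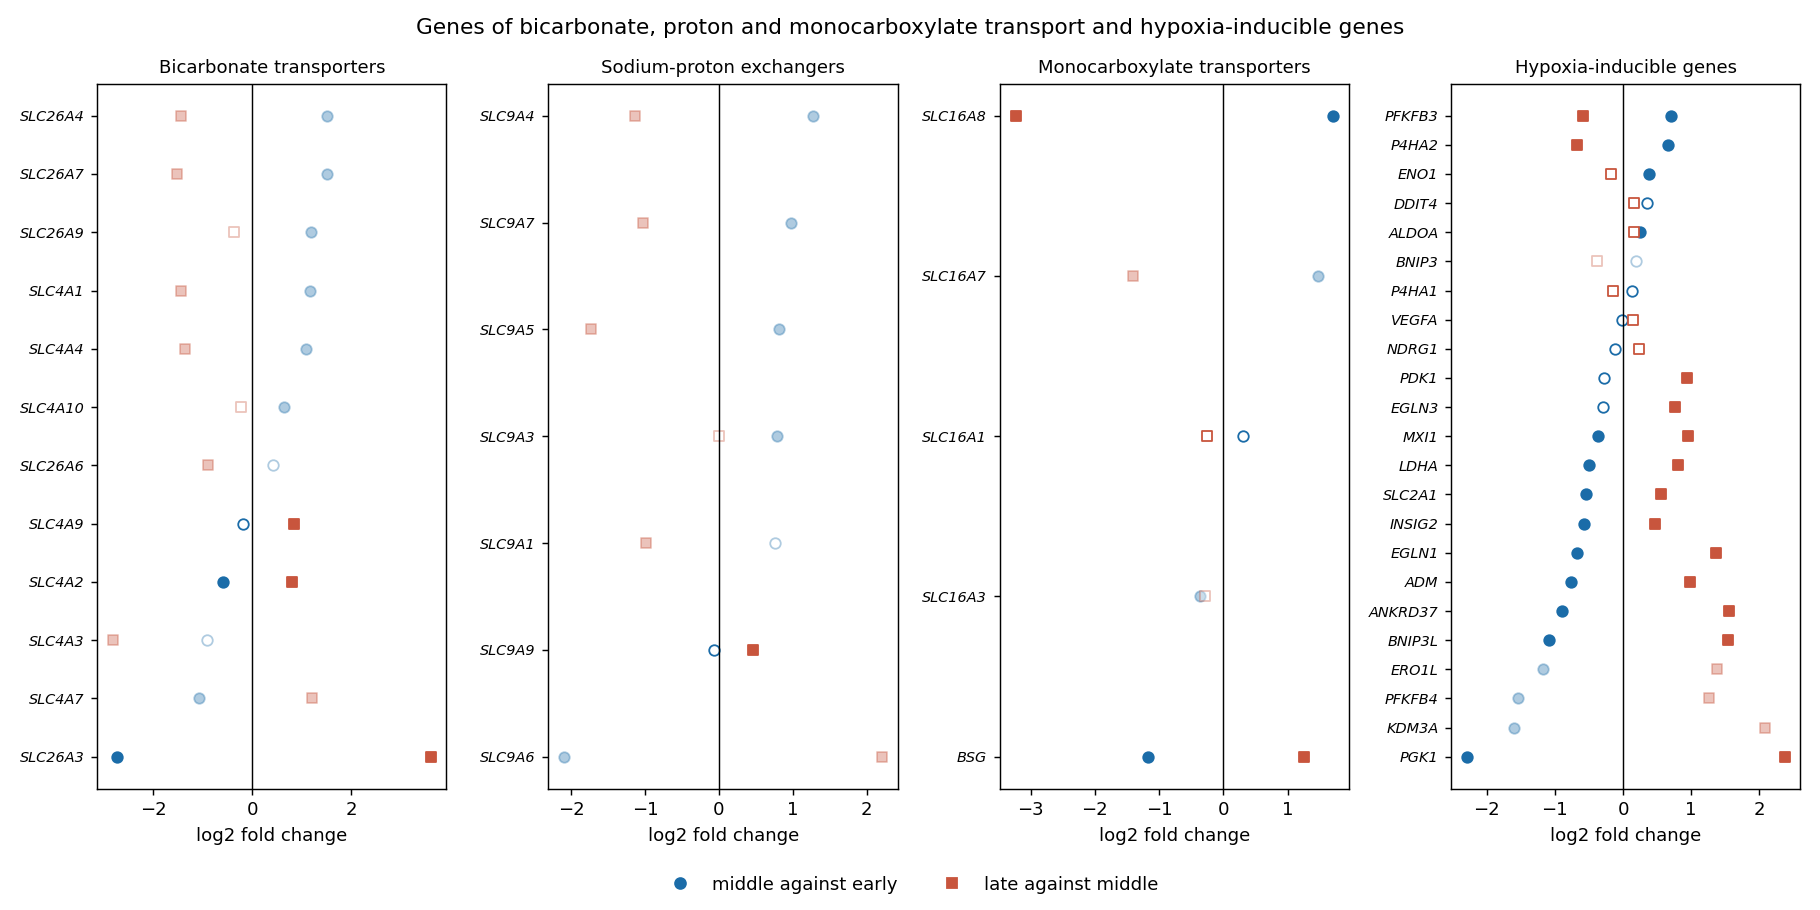
Log2 fold change (horizontal axis) of the genes of 4 lists (rows) in the first period (circles) and the second (squares). Filled symbols were called at an adjusted *P* below 0.05, and pale ones missed the background mark on some array of the stages compared. *SLC26A3* and *PGK1* are at the low end of their lists in the first period (−2.74 and −2.29) and at the high end in the second (3.61 and 2.37).

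Of the carbonic anhydrases outside the 10 members, *CA5A*, *CA7*, *CA10*, *CA11* and *CA14* had probes under these symbols. In the first period 3 of the 5 were called higher and 0 lower, none of the 3 at full detection in both stages, and in the second 1 was higher and 3 lower. *CA11*, a relative without catalytic activity, was well above background on all 27 arrays and was higher in the second (0.28 ± 0.11, adjusted *P* = 0.033, limma) and total periods (0.52 ± 0.11, adjusted *P* = 0.0035, limma). *CA10* was well above background on no array. A further probe, with the gene name LOC784254, is described on the array as carbonic anhydrase 1-like. It lies at chr14:79581253-79581312, between the probes of *CA1* and *CA13*, and was not counted with either set. Its levels are not reported here.

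The stratified epithelium markers had a summed level of 4433 to 6031, 1466 to 5652 and 5262 to 6262 times the array median at the early, middle and late stages. Of 15 markers 2 were higher and 9 lower in the first period and 6 higher and 2 lower in the second (6 and 5 with the 75th percentile). Array-wide shares were 45.3% higher and 21.2% lower, then 26.7% and 44.8%. The markers other than *KRT4* were bright, and without dim probes 3195 of 10165 probes were higher and 3168 lower, then 3983 and 2900. Among markers well above background throughout both stages, 1 was higher and 9 lower, then 6 higher and 1 lower. *IVL*, an envelope protein of the outer layers, fell by 1.99 ± 0.19 (adjusted *P* = 1.61e-07, limma) and rose by 2.57 ± 0.19 (adjusted *P* = 2.55e-09, limma), and *KRT14*, a keratin of the basal layer, was lower in the total period (−1.07 ± 0.15, adjusted *P* = 6.02e-05, limma). Their part in the *CA12*, *CA9*, *CA13* and *CA5B* values was not tested. Beside the same array-wide shares, 4 of 8 smooth muscle markers were higher and 0 lower in the first period and 0 higher and 7 lower in the second. Of these calls, 2 of the 4 and 3 of the 7 were well above background throughout both stages. Of 8 fibroblast markers 1 was higher and 2 lower and then 2 higher and 4 lower, and of 11 leukocyte markers 3 were higher and 2 lower and then 3 higher and 4 lower.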

How the data were processed

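RNA of 27 RE biopsies from 9 cattle was extracted, labeled with cyanine 3 and hybridized to a custom Agilent bovine array by the authors, who deposited the Feature Extraction output (version 11.0.1.1 per the file headers, 9.5 per the submitters' processing notes). Its processed signal is an intensity on a linear scale with the local background subtracted, and its marks for well above background, saturation and outliers were used as deposited. A second table deposited by the authors holds log2 values, found here to be centered near the 75th percentile of each array (medians within 0.0806), which served as an alternative.

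From these files, log2 processed signal minus the array median over 15110 non-control spots was computed, outlier spots were left missing and spots of 1 probe were averaged. R 4.3.3 and limma 3.58.1 fitted stage and animal on all 27 arrays, since each animal was biopsied at every stage and the methods divide by the array median and use paired tests. Benjamini-Hochberg adjustment ran over 15008 probes, called at 0.05. Arrays of the same animal had a mean correlation of 0.158 in their deviations from the stage means (24 of 27 pairs above 0) against −0.020 for different cattle. On simulated arrays with 200 probes changed 2-fold between middle and early, the fit called 71.5% of them and 7 of the others. The simulated arrays had independent noise and no slide, brightness or scaling shift, so these rates do not carry over to the real arrays. Numbers of arrays limit the precision.

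All members were named, and of each list the largest rise and fall per period among called genes well above background on all arrays of both stages; the brightest probe stood for a gene. For members well above background on all 27 arrays, the 3 genes most alike were named. The members and lists were chosen with earlier results of these data known. Of the list genes, 1 is not reported here by name. Symbols of all 10 members matched the reference gene table. Alternatives were other scalings, normexp with an offset of 50, a filter on dim probes, outlier spots kept, the deposited log2 table, no animal block, the slide in the model, the methods' t-test, other sets of arrays and each animal left out.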

Additional observations from a re-analysis of the deposited data

Results flagged for a closer look

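Of 18 sets of 9 arrays in which a member was well above background throughout, 2 held an animal set apart from the rest, and chance gives about 1 in 20. *CA4* at the middle stage was 3.87 in animal 1, with the next animal at 5.07, a gap of 0.497 of the range which is past Dixon's critical value for 9 samples. *CA13* at the late stage was 1.31 in animal 9, with the next at 0.70, a gap of 0.527 of the range.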

How the results depend on the processing

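Of the values of single members under 24 alternatives, 545 kept their direction and side of the threshold, 22 turned their direction, 15 newly passed the threshold and 29 lost it. The first-period count of 5 members became 3 with a random slide effect, 0 with a fixed slide effect and 0 within slide 2 alone, fits that called 6830, 1255 and 7 of 15008 probes against 9984, and was 5 to 6 when 1 animal was left out. The second-period count of 7 stayed between 5 and 9. The total-period count of 1 became 0 with normexp, without dim probes (8 members tested), without the animal block, with a random slide effect and without cattle 8 and 9, became 2 (*CA2* and *CA4*, both lower) with only the 2 stages in the fit, and ran from 0 to 2 when 1 animal was left out, at 0 without animal 2, 4, 7 or 8 and 2 without animal 3. Under the 75th percentile, quantile and bright-probe scalings, the deposited log2 table and the methods' t-test the single call was *CA4*, lower, in place of *CA3*. The replicate block changed no call in the first and second periods, where 5 and 7 members were also called without it.

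Direction turned for *CA1* in the first period with quantile normalization (−0.14) and normexp (−0.45) and ran from −3e-04 to 0.28 with 1 animal left out. With normexp it also turned for *CA4* (−0.35) in the first period, for *CA1* (0.61), *CA4* (0.25), *CA6* (−0.16) and *CA9* (−0.008) in the second and for *CA1* (0.16), *CA12* (0.032) and *CA8* (−0.043) in the total period. *CA6* turned with quantile normalization (−0.22) and *CA13* with a fixed slide effect (0.048) in the first period. In the total period *CA9* turned with quantile normalization (0.025) and a random slide effect (0.053), *CA1* with the latter (0.024) and *CA8* with the 75th percentile (−0.0004), bright-probe scaling (−0.012) and a random slide effect (−0.09). With 1 animal left out *CA9* ran from −0.085 to 0.029 and *CA8* from −0.13 to 0.24 in that period. The cause was not tested. The median of all probes was 0.33 and −0.28 in the first and second periods and 0.09 and −0.04 with quantile normalization, and the share of called probes that were higher went from 68.1 and 37.3% to 51.3 and 51.3%. In the total period that share was 54.9% and fell to 33.8% with the 75th percentile. Signal over background limits *CA8*, *CA6* and the middle-stage values of *CA9*. A fixed slide effect could be fitted for the first period alone.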
